A study of Schizosaccharomyces pombe with 8 samples.

Results

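The genes described here encode the reductive iron uptake system of fission yeast (Schizosaccharomyces pombe), its main regulators, and an iron store and iron-sulfur cluster factor: frp1, frp2, fio1, fip1, php4, fep1, pcl1 and isa1. They were chosen by name, with results of these data already known, and are 8 of the 6973 features that each library listed. All 8 passed the filter on low counts, which 6620 features passed. Because the choice rested on measured levels in the same comparisons, the values of these 8 genes are given as a description. Where the call rule of the fit over all features is applied to them, the count only describes which of them passed it and is no test of the genes.

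Total RNA was sequenced from 4 genotypes with 2 libraries each. The wt cells carried neither deletion, mot2∆ cells lacked mot2 (replaced by natMX), mamRNA∆ cells lacked mamRNA (replaced by natMX), and mot2∆ mamRNA∆ cells lacked both (mot2 replaced by kanMX, mamRNA by hygTK). Within Ccr4-Not, the complex that shortens poly(A) tails, Mot2 is the subunit that attaches ubiquitin to other proteins. The long non-coding RNA mamRNA, made next to snoU14, serves as a scaffold for the RNA-binding proteins Mmi1 and Mei2. All strains were h90, that is, able to switch mating type and mate within one culture, and all grew in EMM minimal medium for 2 days at 30 °C to an optical density of 0.6. The double mutant carried other marker cassettes than the single mutants, so a cassette and the combination of deletions cannot be told apart. How many clones or cultures stood behind the 2 libraries of a genotype is not given in the sources used here, so the spread between libraries may be technical.

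Total counts ranged from 22381332 to 34667534 per library, and 3 counts corresponded to between 0.0847 and 0.141 CPM. CPM here means counts per 1000000 counts after scaling by TMM, a correction for differences in library composition. The replicate libraries of a genotype had Spearman correlations of 0.997 to 0.999 across features. The median gap between replicates was largest in wt, at 0.151 log2 units, and smallest in the double mutant, at 0.0597, and ribosomal RNA took 2.28% of the first wt library against 0.134% to 0.735% of the others. The level of mot2 was 22.3 and 23.4 CPM in wt, 18.9 and 18.8 CPM in mamRNA∆, 4.11 and 4.26 CPM in mot2∆ and 2.72 and 2.77 CPM in the double mutant, while mamRNA itself was not analysed here. An h90 culture can hold mating or sporulating cells. Their 11 marker genes were all detected, and their summed level was 986 and 845 CPM in wt, 2981 and 2786 CPM in mot2∆, 758 and 826 CPM in mamRNA∆ and 780.3 and 759.6 CPM in the double mutant. Of these markers 6 of 11 passed the call rule given below as higher in mot2∆ than in wt, as did 4.68% of all features. The gene isp3 alone had 929 and 910 CPM in mot2∆, against 12.3 and 11.6 CPM in wt. The markers meu14 and spo6 were not called, at log2 fold changes of 0.06 (SE 0.09) and 0.14 (SE 0.08). In the study, meiotic mRNAs accumulated in mitotic mot2∆ cells, and how many cells were mating or sporulating was not measured here. Whether these cells had a part in the levels below was not tested, and in bulk RNA fewer cells of a type and less RNA per cell cannot be told apart.

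Yeast takes up iron in its reduced form through the reductive pathway. A ferric reductase at the cell surface reduces ferric to ferrous iron, and a multicopper ferroxidase then oxidizes it again while handing it to a permease in the same complex. In fission yeast these genes are repressed by the GATA-type factor Fep1 when iron is plentiful. When iron is scarce, Php4 joins the CCAAT-binding complex and represses genes whose products use or store iron, fep1 among them, while php4 is itself a gene that Fep1 represses.

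The genes of uptake and php4 were highest in the double mutant. In 5 of the 8 genes (frp1, frp2, fio1, fip1 and php4) both double mutant libraries lay above every other library, as in 19.1% of all features tested. In 4 of them (frp1, frp2, fio1 and php4) both mamRNA∆ libraries lay below every other library, as in 993 of the 6620 features tested. The other 3 genes, fep1, pcl1 and isa1, varied over a narrower range. Of these, fep1 and pcl1 were lower in both genotypes without Mot2 than in wt and mamRNA∆, as were 16.1% of all features.

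**Figure D1:**
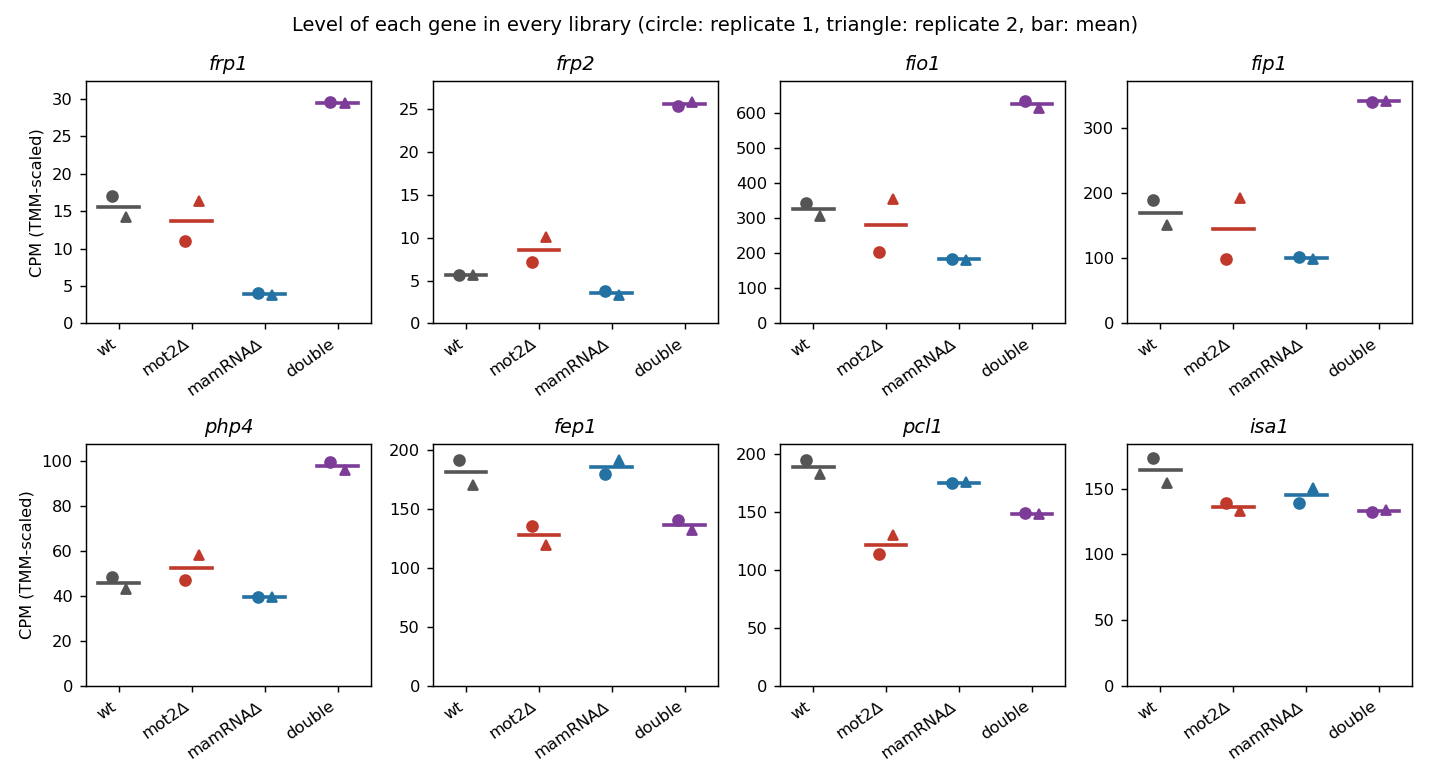
Each panel plots the level of 1 gene in CPM on a linear axis from 0, with circles for replicate 1, triangles for replicate 2 and bars for the mean of the 2 libraries of each genotype (double, mot2∆ mamRNA∆). The double mutant stands above the other genotypes for frp1, frp2, fio1, fip1 and php4, at 29.5 CPM against 15.6 CPM in wt for frp1, and the 2 mot2∆ libraries lie apart for fio1 and fip1.

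The gene frp1 encodes the cell surface ferric reductase. Its level was 17.0 and 14.3 CPM in wt, 11.01 and 16.4 CPM in mot2∆, 4.12 and 3.84 CPM in mamRNA∆, and 29.6 and 29.4 CPM in mot2∆ mamRNA∆. The order of the means was therefore double mutant (29.5 ± 0.0957 CPM, SD, n = 2), wt (15.6 ± 1.94), mot2∆ (13.7 ± 3.78) and mamRNA∆ (3.98 ± 0.195), and only the libraries of wt and mot2∆ overlapped. The log2 fold change against wt was -1.97 (SE 0.18) in mamRNA∆ and 0.92 (SE 0.15) in the double mutant. Loss of mamRNA thus went with a 3.91-fold lower level in cells with Mot2. In cells without Mot2, where the marker cassettes also differed, it went with a 2.16-fold higher level. These counts were low but well above the floor: across all 8 genes and 8 libraries the smallest count was 116 and the largest 20985.

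Its relative frp2, annotated as a second ferric reductase, had 5.63 and 5.64 CPM in wt, 7.20 and 10.05 CPM in mot2∆, 3.82 and 3.36 CPM in mamRNA∆, and 25.3 and 25.9 CPM in the double mutant. No genotypes overlapped in this gene. The double mutant was 4.54-fold above wt (log2 fold change 2.18, SE 0.15), the largest difference from wt among the 8 genes. Against wt, the log2 fold change in mot2∆ was 0.61 (SE 0.16), while that in mamRNA∆ was -0.66 (SE 0.18).

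The 2 reductase genes differed in where wt stood relative to the mutants. The ratio of frp1 to frp2 counts within a library, whose size also depends on the lengths of both genes, was 3.02 and 2.53 in wt, 1.53 and 1.63 for mot2∆, 1.08 and 1.14 for mamRNA∆, and 1.17 and 1.14 for the double mutant. All 6 mutant libraries thus lay below both wt libraries in this ratio.

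The multicopper ferroxidase gene fio1 had 344 and 306 CPM in wt, 204 and 355 CPM in mot2∆, 184 and 180.2 CPM in mamRNA∆, and 635 and 615 CPM in the double mutant. The permease gene fip1, its neighbour on the chromosome in the RefSeq annotation ASM294v3, had 189 and 151 CPM in wt, 98.2 and 193 CPM in mot2∆, 102 and 99.2 CPM in mamRNA∆, and 341 and 342 CPM in the double mutant. In both genes the double mutant stood apart and the mot2∆ libraries spanned those of wt. For fip1 the lower mot2∆ library also reached the level of mamRNA∆. Against wt the double mutant had a log2 fold change of 0.94 (SE 0.18) for fio1 and 1.01 (SE 0.22) for fip1, and mamRNA∆ had -0.84 (SE 0.18) and -0.75 (SE 0.22).

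The products of fio1 and fip1 work as one complex, and their RNAs kept a nearly fixed proportion. The ratio of fio1 to fip1 counts lay between 1.79 and 2.08 in the 8 libraries, while fio1 itself ranged from 180.2 to 635 CPM. The correlation of their log2 CPM over the 8 libraries was 0.994. Such a correlation is a description, since the points are libraries of 4 genotypes that share their scaling.

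**Figure D2:**
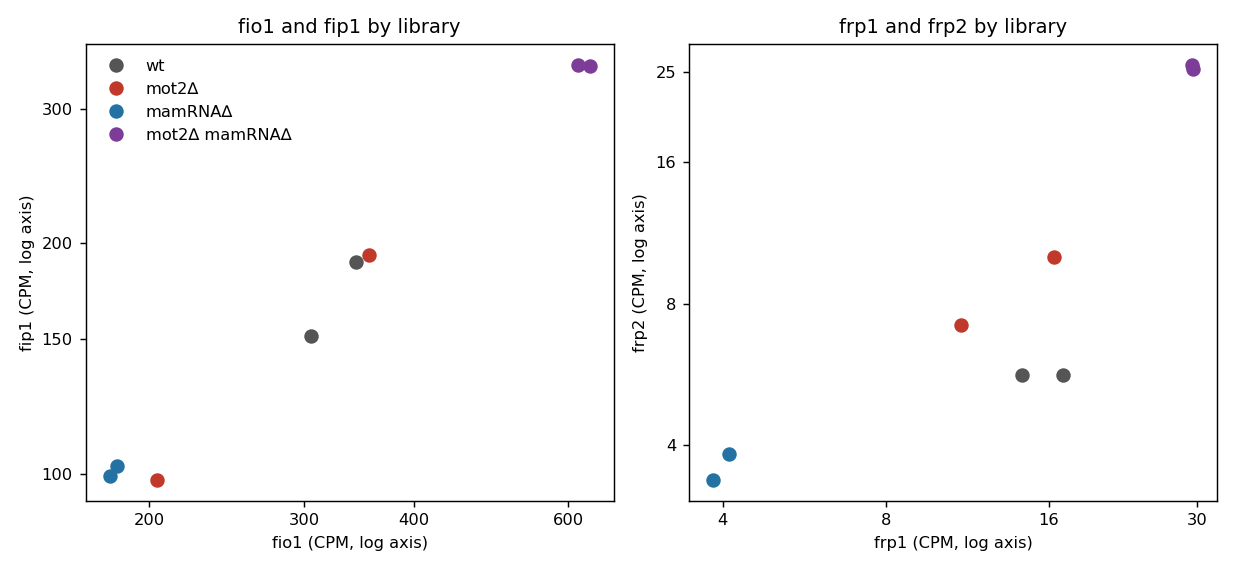
Each point is 1 library, coloured by genotype, with the CPM of fio1 against fip1 on the left and of frp1 against frp2 on the right, all on log axes. The left panel forms a single line, with a ratio of counts between 1.79 and 2.08, whereas in the right panel the wt libraries lie to the side of the others.

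The 2 mot2∆ libraries disagreed over uptake genes more than over most features. Replicate 2 was above replicate 1 by 1.97-fold for fip1, 1.74-fold for fio1, 1.48-fold for frp1, 1.39-fold for frp2 and 1.24-fold for php4. Only 0.740% of features had a larger gap between these libraries than fip1, and 1.22% a larger one than fio1. In the double mutant the gaps of these 5 genes were at most 1.04-fold. As a result the sign of the mot2∆ value against wt was not settled for 3 uptake genes. Their log2 fold changes were -0.18 (SE 0.16) for frp1, -0.22 (SE 0.18) for fio1 and -0.22 (SE 0.22) for fip1. Without mot2∆ replicate 2 they became -0.49, -0.66 and -0.78, and without mot2∆ replicate 1 they became 0.08, 0.14 and 0.19. The summed level of the 4 uptake genes shows the same spread, at 320.4 and 575 CPM in mot2∆, beside 556 and 477 CPM in wt, 294 and 287 CPM in mamRNA∆ and 1030.3 and 1012 CPM in the double mutant.

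The regulator gene php4 followed the uptake genes over a smaller range. Its level was 48.2 and 43.2 CPM in wt, 47.1 and 58.2 CPM in mot2∆, 39.5 and 39.4 CPM in mamRNA∆, and 99.5 and 96.0 CPM in the double mutant. The mot2∆ and wt libraries overlapped, and the other genotypes did not. The double mutant was 2.14-fold above wt (log2 fold change 1.10, SE 0.09), and the single mutants lay close to wt, at 0.21 (SE 0.09) in mot2∆ and -0.21 (SE 0.10) in mamRNA∆. Over the 8 libraries php4 had a correlation of 0.986 with frp2 and 0.930 with fio1.

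The repressor gene fep1 showed another pattern, with the 2 genotypes lacking Mot2 together at the bottom. Its level was 192 and 171 CPM in wt, 136 and 119.8 CPM in mot2∆, 179 and 192 CPM in mamRNA∆, and 141 and 132 CPM in the double mutant. The libraries of wt and mamRNA∆ overlapped, and so did those of mot2∆ and the double mutant, but the pairs did not overlap each other. The log2 fold change against wt was -0.50 (SE 0.08) in mot2∆, 0.03 (SE 0.08) in mamRNA∆ and -0.41 (SE 0.08) in the double mutant. The difference between the double mutant and mot2∆ was 0.10 (SE 0.08).

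Set beside each other, the opposing regulators changed their proportion across the genotypes. The ratio of fep1 to php4 counts was 3.98 and 3.95 in wt, 2.89 and 2.06 for mot2∆, 4.55 and 4.87 for mamRNA∆, and 1.42 and 1.38 for the double mutant. No genotypes overlapped in this ratio, which was highest in mamRNA∆ and lowest in the double mutant.

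The gene pcl1 encodes a transporter that moves iron into the vacuole, where it is stored. It had 195 and 183 CPM in wt, 114 and 129.9 CPM in mot2∆, 175 and 176 CPM in mamRNA∆, and 149.0 and 148.7 CPM in the double mutant, with no overlap between genotypes. It was the gene with the lowest value in mot2∆ among the 8, at a log2 fold change against wt of -0.63 (SE 0.07), beside -0.34 (SE 0.07) in the double mutant and -0.11 (SE 0.07) in mamRNA∆. It lies next to frp1 in the same annotation, yet the ratio of pcl1 to frp1 counts ran from 5.04 and 5.05 in the double mutant to 42.6 and 45.8 in mamRNA∆.

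The gene isa1 encodes a mitochondrial factor of iron-sulfur cluster assembly, a pathway that uses iron. It varied least, with 173 and 154 CPM in wt, 139 and 133 CPM in mot2∆, 139 and 150.5 CPM in mamRNA∆, and 132 and 133 CPM in the double mutant. Every mutant library lay below both wt libraries, and in the order mamRNA∆, mot2∆ and double mutant each overlapped the next. The log2 fold changes against wt were -0.27, -0.18 and -0.30 (SE 0.07 each) in mot2∆, mamRNA∆ and the double mutant.

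The next question was what each deletion did to these genes alone and in the other's absence. Called here means an absolute log2 fold change over 1 together with an edgeR quasi-likelihood p under 0.05 after Benjamini-Hochberg adjustment over the 6620 features. Shares of all features are given beside each count, and nothing is read from the counts of these 8 genes, since the comparisons had a part in their choice. Loss of Mot2 alone gave 0 calls (0 with DESeq2), where 4.68% of all features were called higher and 3.88% lower. At an unadjusted p under 0.05 there were 4 of 8 genes. At an adjusted p under 0.05 alone, a stricter cut, the same number passed (frp2, fep1, pcl1 and isa1), where 59.2% of all features did. Loss of mamRNA alone gave 1 lower call, frp1, where 1.47% of features were called lower and 2.52% higher. Both mamRNA∆ libraries lay below both wt libraries in 7 of the 8 genes, all but fep1, where 36.9% of all features lay below and 34.0% above in the same way.

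Loss of both gave 3 higher calls against wt, frp2, fip1 and php4, where 3.04% of features were called higher and 5.76% lower. The log2 values of fio1 and frp1 lay just inside the fold threshold, at 0.94 and 0.92, and that of fip1 just outside it, at 1.01. The count went from 3 to 5 without wt replicate 1 and to 2 without wt replicate 2, where fip1 had a log2 value of 0.85. The call of fip1 was also lost with scaling by total counts (log2 value 0.96).

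Deleting mamRNA in cells that already lacked Mot2 gave 4 higher calls, frp1 (log2 fold change 1.11, SE 0.15), frp2 (1.57, SE 0.14), fio1 (1.16, SE 0.18) and fip1 (1.23, SE 0.22), where 2.15% of features were called higher and 4.59% lower. The value of php4 was 0.89 (SE 0.09). This count rested on mot2∆ replicate 1: without that library frp2 was the 1 gene still called, and without mot2∆ replicate 2 there were 5. With scaling by total counts the calls over all features split into 93 higher and 369 lower, in place of 142 and 304.

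Deleting mot2 in cells that already lacked mamRNA gave the widest differences. The log2 fold change was 2.89 (SE 0.17) for frp1 and 2.84 (SE 0.15) for frp2, which are 7.42-fold and 7.14-fold. It was 1.78 (SE 0.18) for fio1, 1.76 (SE 0.22) for fip1 and 1.31 (SE 0.09) for php4. These 5 genes were called, where 4.15% of features were called higher and 5.71% lower. The values of fep1, pcl1 and isa1 were -0.44 (SE 0.08), -0.24 (SE 0.07) and -0.13 (SE 0.07).

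**Figure D3:**
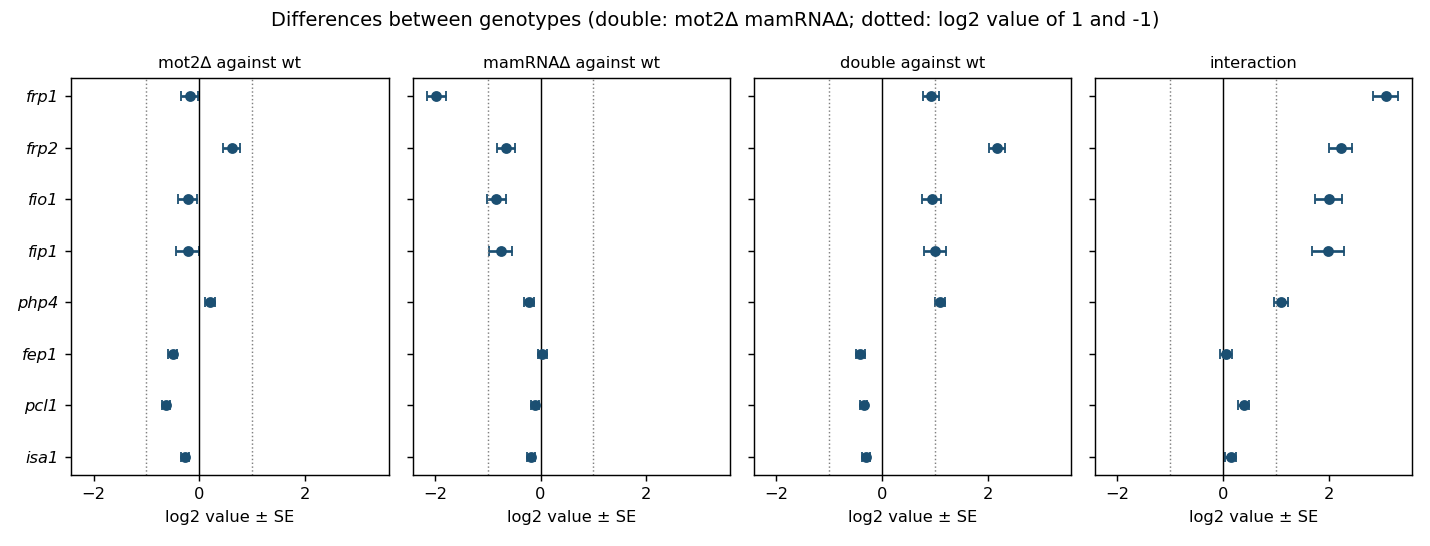
Points give the log2 fold change of each gene against wt in mot2∆, mamRNA∆ and the double mutant and, in the last panel, the interaction, with bars of 1 SE from the edgeR fit and dotted lines at 1 and -1. The uptake genes lie left of 0 in mamRNA∆ and right of 0 in the double mutant, and the interaction of frp1 lies farthest right, at 3.08.

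The interaction compares the effect of losing Mot2 in the absence and in the presence of mamRNA, and it is above 0 where the double mutant exceeds the sum of the single mutant changes on the log2 scale. Its log2 value was 3.08 (SE 0.23) for frp1, 2.22 (SE 0.22) for frp2, 2.00 (SE 0.25) for fio1, 1.98 (SE 0.31) for fip1 and 1.10 (SE 0.13) for php4. These 5 genes were called, where 4.46% of features were called above 0 and 6.69% below. The value was 0.39 (SE 0.10) for pcl1, 0.14 (SE 0.10) for isa1 and 0.06 (SE 0.12) for fep1. Scaling by total counts shifted the median of all features to -0.110 and the calls from 295 above and 443 below 0 to 217 and 537. Under it php4 lost its call (0.99) and fep1 changed sign (-0.06). The call of php4 was also lost without mot2∆ replicate 1 (0.95).

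The comparisons with the double mutant share its libraries, as those with wt share theirs, so their values are not independent of each other. Those between the double and the single mutants, and the interaction, also hold the difference in marker cassettes.

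Other genes of iron handling were examined as 5 lists holding 60 genes, of which 54 were tested. The lists were drawn up with earlier results known, and the tests below were adjusted over all 6620 features. In siderophore and heme uptake, the non-reductive routes for iron, 7 genes were tested. The double mutant had 4 of 7 called higher than wt and 0 lower, with a list median of 1.34 against -0.01 over all features. Of all features 3.04% were called higher and 5.76% lower in this comparison. The 3 genes not called were str2, at a log2 fold change of -0.11 (SE 0.10), sib1 (0.03, SE 0.07) and sib2 (-0.25, SE 0.07). In mot2∆, str2 was lower than in wt, at -0.59 (SE 0.10, edgeR adjusted p = 0.000323), opposite to str1 below. The siderophore transporter gene str1 had 470.4 and 401 CPM in wt, 991 and 1062 CPM in mot2∆, 388 and 434 CPM in mamRNA∆, and 1854 and 1764 CPM in the double mutant. Its log2 fold change against wt was 1.24 in mot2∆ (SE 0.10, edgeR adjusted p = 8.61e-07) and 2.05 in the double mutant (SE 0.10, adjusted p = 2.42e-08). In mamRNA∆ it was -0.08 (SE 0.10, adjusted p = 0.518).

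The heme transporter gene str3 was called higher in both genotypes without Mot2. It had 4.09 and 5.28 CPM in wt, 66.3 and 185 CPM in mot2∆, 5.01 and 4.01 CPM in mamRNA∆, and 411 and 405 CPM in the double mutant. The log2 fold change was 4.73 in mot2∆ (SE 0.41, edgeR adjusted p = 1.43e-06) and 6.43 in the double mutant (SE 0.42, adjusted p = 1.95e-07). Its 2 mot2∆ libraries stood apart in the same order as those of the reductive genes. The interaction of str3 was 1.78 (SE 0.59, adjusted p = 0.0268), a call lost without wt replicate 1, wt replicate 2 or mamRNA∆ replicate 2 and with scaling by total counts.

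The heme uptake gene shu1, next to str3 on the chromosome, was near the limit of detection, with 1 and 0 counts in wt and 2 and 3 in mamRNA∆, beside 31 and 64 in mot2∆ and 50 and 29 in the double mutant. Set against a floor of 3 counts per wt library, its mean was 12.5-fold higher in mot2∆ and 9.90-fold higher in the double mutant. These folds are ratios of means, and single libraries spread around them, at 1.03 and 2.08 CPM in mot2∆ and 1.51 and 0.957 CPM in the double mutant. The vacuolar transporter gene abc3 lay on the same side of wt as the reductive genes in mamRNA∆ and in the double mutant. It had 96.8 and 90.6 CPM in wt, 104 and 155 CPM in mot2∆, 53.1 and 54.3 CPM in mamRNA∆ and 244 and 230.0 CPM in the double mutant. Both mot2∆ libraries thus lay above wt, as for frp2, while those of frp1, fio1 and fip1 overlapped wt. The log2 fold change of abc3 was 0.47 in mot2∆ (SE 0.13, edgeR adjusted p = 0.00972) and -0.80 in mamRNA∆ (SE 0.14, adjusted p = 0.000704), both under the fold threshold. In the double mutant it was 1.34 (SE 0.14, adjusted p = 5.39e-06). The interaction was 1.67 (SE 0.19, adjusted p = 2.28e-05). An antisense feature is listed for abc3, and without stated use of strand the reads of both cannot be told apart.

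The partners of the regulators were another list. Of 7 genes of this list, 0 were called in any comparison of genotypes and 1, grx4, in the interaction, with edgeR. Over all features, 1.47% to 5.76% were called in a given direction between genotypes. In the interaction 4.46% were called above 0 and 6.69% below. At an unadjusted p under 0.05 there were 6 of 7 in mot2∆ and 3 of 7 in the double mutant against wt. At an adjusted p under 0.05 alone, a stricter cut, php2, php5, tup12, grx4 and fra2 passed in mot2∆. In the double mutant php2 and grx4 passed. The shares of all features at this stricter cut were 59.2% and 59.4%. DESeq2 also called 0 between genotypes. Values against wt in the double mutant were -0.34 (SE 0.07) for php2, 0.02 (SE 0.09) for php3 and 0.24 (SE 0.11) for php5, the core of the CCAAT-binding complex, and 0.15 (SE 0.07) and 0.08 (SE 0.07) for the corepressor genes tup11 and tup12. The gene grx4 encodes a monothiol glutaredoxin that acts on Fep1. It had 74.5 and 90.3 CPM in wt, 38.8 and 45.7 CPM in mot2∆, 52.4 and 49.5 CPM in mamRNA∆, and 66.0 and 66.8 CPM in the double mutant, so that each single mutant lay below the double mutant. In mot2∆ its log2 fold change against wt was -0.97 (SE 0.10, edgeR adjusted p = 5.59e-06), just under the fold threshold, which it passed without wt replicate 1 or without mot2∆ replicate 2. Its interaction was 1.35 (SE 0.14, adjusted p = 9.11e-06).

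Copper supply bears on fio1, since Fio1 needs copper. Of 6 genes tested, 0 were called in any comparison with edgeR or DESeq2. Over all features, edgeR called 1.47% to 6.69% in a given direction, depending on the comparison. At an unadjusted p under 0.05 there were 4 of 6 in mot2∆ and 5 of 6 in mamRNA∆ against wt. At an adjusted p under 0.05 alone, a stricter cut, ctr5, cuf1 and ccc2 passed in mot2∆. In mamRNA∆ ctr5, ctr6, ccc2 and atx1 passed. The shares of all features at this stricter cut were 59.2% and 42.5%. In the double mutant the log2 fold change against wt was 0.20 (SE 0.12) for ctr4 and -0.09 (SE 0.09) for ctr5, the copper transporter genes of the cell surface. It was -0.01 (SE 0.08) for the vacuolar ctr6, 0.06 (SE 0.07) for ccc2, whose product pumps copper towards Fio1, and -0.06 (SE 0.07) for cuf1, the copper-sensing factor. The gene atx1, which encodes a copper chaperone and was named after its values were seen, was the exception, at 23.1 and 24.4 CPM in wt, 22.9 and 23.5 CPM in mot2∆, 39.7 and 38.6 CPM in mamRNA∆, and 42.2 and 43.5 CPM in the double mutant. Both genotypes without mamRNA lay above both with it. In the annotation atx1 overlaps rrf1, and without stated use of strand the reads of both cannot be told apart. Its log2 fold change against wt was 0.72 in mamRNA∆ (SE 0.07, edgeR adjusted p = 1.06e-05) and 0.85 in the double mutant (SE 0.07, adjusted p = 1.23e-06), past the p threshold and under the fold threshold. Among the other copper genes, ctr5 had 0.62 in mamRNA∆ (SE 0.09, edgeR adjusted p = 0.000188) and cuf1 -0.63 in mot2∆ (SE 0.07, adjusted p = 1.33e-05).

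Genes that use iron were compared between the double mutant and wt, where 3.04% of all features were called higher and 5.76% lower. Of 18 genes of iron-sulfur cluster assembly, 1 was called higher and 1 lower against wt, with a list median of -0.03. The scaffold gene isu1 rose from 132 and 125 CPM in wt to 289 and 304 CPM (log2 fold change 1.20, SE 0.08, edgeR adjusted p = 2.18e-07), and it overlaps another protein-coding gene in the annotation. It had 197 and 214 CPM in mot2∆ and 99.0 and 114 CPM in mamRNA∆. The gene isa2, whose product works with Isa1, fell from 9.67 and 10.2 CPM to 4.81 and 3.53 CPM (log2 fold change -1.25, SE 0.16, adjusted p = 3.74e-05). Both single mutants also lay below wt in isa2, at 7.99 and 6.63 CPM in mot2∆ and 7.48 and 6.58 CPM in mamRNA∆. Of 16 genes of iron-using enzymes, 1 was called lower and 0 higher, with a list median of -0.14. This was ctt1, the catalase gene, whose product holds heme. It had 606 and 517 CPM in wt, 489.9 and 370.1 CPM in mot2∆, 592 and 633 CPM in mamRNA∆ and 222 and 207 CPM in the double mutant (log2 fold change against wt -1.39, SE 0.12, adjusted p = 1.94e-06).

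Over all 54 genes, 3 were called higher in mot2∆ than in wt (str1, str3 and shu1), where 4.68% of all features were called higher. In mamRNA∆ 0 were called with edgeR or DESeq2, where 2.52% of all features were called higher and 1.47% lower by edgeR. At an unadjusted p under 0.05 there were 28 of 54. At an adjusted p under 0.05, a stricter cut, 42.5% of all features passed, so this share is no background for that count. The count of these genes at the adjusted cut is given with the alternatives below. In the double mutant 5 were called higher and 2 lower, where 3.04% of all features were called higher and 5.76% lower. Between the double mutant and mot2∆, str3 was called higher and ctt1 lower, the latter at a log2 value of -1.01 that fell under the threshold in 6 of 19 alternatives, among them without mot2∆ replicate 1 and without mot2∆ mamRNA∆ replicate 2. Between the double mutant and mamRNA∆ 5 were called higher and 1 lower, where 4.15% of all features were called higher and 5.71% lower. For the double mutant against mot2∆ these shares were 2.15% and 4.59%.

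**Figure D4:**
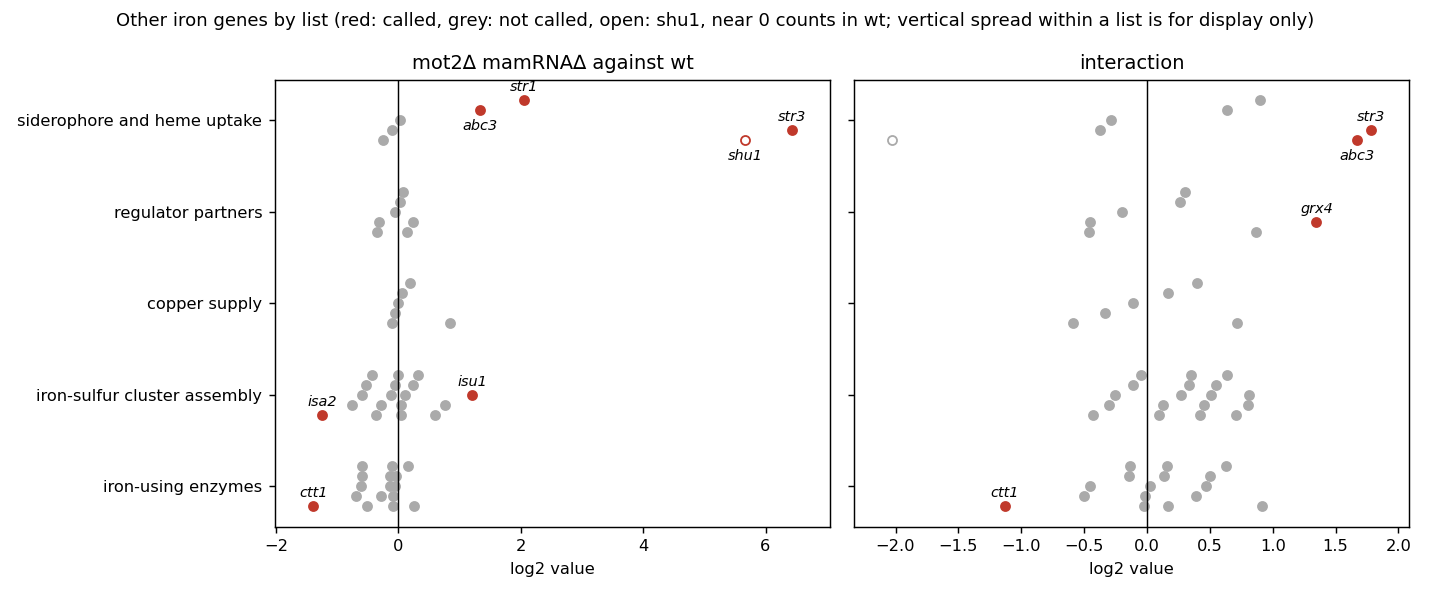
Each point is 1 of the 54 other iron genes, placed by its log2 fold change in the double mutant against wt on the left and by its interaction on the right, with 1 line of points per list and called genes named in red. The calls on the left lie mostly in siderophore and heme uptake, with str3 at 6.43, and the open circle of shu1 is a fitted value for a gene with 1 and 0 counts in wt.

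Outside the 8 genes, those whose levels ran most like each of them were sought by Pearson's r of log2 CPM over the 8 libraries. The 4808 candidates had a mean of at least 10 CPM, with antisense features and the 8 genes themselves left out. The r of fio1 with fip1, 0.994, was thus left out, though above that of every gene named for either. Each r is a description, picked as among the highest of the 4808 candidates, and it does not weigh the size of a change. The genotype means of zrg17, named for frp1, ran from 37.1 to 49.4 CPM, while those of frp1 ran from 3.98 to 29.5 CPM. For frp1 they were oga1 (0.996), the zinc transporter gene zrg17 (0.991) and the tRNA ligase gene irs1 (0.989). For frp2 they were the GTP cyclohydrolase gene fol2 (0.995), met9 (0.992) and SPBC1604.04 (0.990), and fol2 also came first for php4 (0.995), before SPCC18.13 (0.991) and rpp40 (0.991). The sulfate adenylyltransferase gene sua1 was shared by fio1 (0.982) and fip1 (0.977). Beside it stood tco89 (0.980) and SPAC1F5.03c (0.978) for fio1, and hnt1 (0.979) and rps1001 (0.972) for fip1. For fep1 they were SPBC21B10.07 (0.987), SPBC354.09c (0.982) and pch1 (0.979), for pcl1 adk1 (0.993), srp1 (0.993) and vma3 (0.991), and for isa1 imt1 (0.988), prz1 (0.984) and hta2 (0.979).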

How the data were processed

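Libraries (8) were made from ribosome-depleted total RNA and sequenced as paired 75 nt reads. The authors converted reads with bcl2fastq 2.18.12, trimmed them with Cutadapt 1.15, aligned them with Bowtie2 and counted them per feature with MulticovBed. The deposited values are raw counts, 1 column per library, with no normalization. The build and the use of strand in counting are not given in the sources used here, so no coordinates or sequences are printed. Features were matched by name to the RefSeq annotation ASM294v3 for neighbours and overlaps only. In it 5 of the 8 genes (frp2, fio1, fep1, php4 and pcl1) overlap a non-coding RNA, and 0 overlap a protein-coding gene.

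Libraries were grouped by their titles. The tools were edgeR 4.0.16, limma 3.58.1 and R 4.3.3. After filterByExpr (at least 10 counts, 15 in total), libraries were scaled by TMM and fitted together with 1 coefficient per genotype. The quasi-likelihood F test was two-sided, with Benjamini-Hochberg adjustment over 6620 features, and 6 contrasts were made. SE is the log2 fold change divided by the square root of F. Correlations used a prior count of 2. The fit was tested on simulated data.

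The genes and lists were chosen with earlier results of these data known. Named were the 8 genes, up to 3 called genes of each list and contrast, partners that work directly with the 8, and the 3 features outside the 8 most like each. Of the lists, sib3, jac1, dre2, nar1, cfd1 and ilv3 were not analysed here. Alternatives were RLE size factors, total counts, leaving out features over 1% of counts, DESeq2 1.42.0, other filters, no antisense features, the compared genotypes alone, a replicate block, no fold threshold and each library left out. A crossed replicate block and leaving out ribosomal RNA were added after seeing the data. P-values measure the spread between these libraries, and floors cover counting error only.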

Additional observations from a re-analysis of the deposited data

Results flagged for a closer look

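By the interaction of the edgeR fit, 4.46% of all features were called above 0 and 6.69% below. Among the other iron genes the interaction was called for 4, where the marker cassettes of the double mutant also differed from those of the single mutants. The log2 values were 1.78 (SE 0.59, adjusted p = 0.0268) for str3, 1.67 (SE 0.19, adjusted p = 2.28e-05) for abc3 and 1.35 (SE 0.14, adjusted p = 9.11e-06) for grx4. The catalase gene ctt1 went the other way, at -1.13 (SE 0.17, adjusted p = 0.000198). The call of ctt1 was lost without mot2∆ replicate 1. That of str3 was lost without wt replicate 1, wt replicate 2 or mamRNA∆ replicate 2 and with scaling by total counts. For the genes of reductive uptake and regulation, whose choice rested on these comparisons, the same quantity is a description and no test. It was 3.08 (SE 0.23) for frp1, 2.22 (SE 0.22) for frp2, 2.00 (SE 0.25) for fio1, 1.98 (SE 0.31) for fip1 and 1.10 (SE 0.13) for php4.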

How the results depend on the processing

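Of the 40 calls made on these genes over the 6 contrasts, 29 were made under every alternative that kept the fold threshold. No called value of the 8 genes changed sign, and signs were not compared for the other iron genes. Without the fold threshold (adjusted p under 0.05 alone) the counts among the 8 genes became 4 in mot2∆, 4 in mamRNA∆ and 8 in the double mutant against wt, in place of 0, 1 and 3, where 59.2%, 42.5% and 59.4% of all features passed. Among the 54 other iron genes they became 34, 23 and 27 in the same order, 29 and 34 for the double mutant against mot2∆ and mamRNA∆ (all features 56.2% and 60.4%), and 34 for the interaction (47.6%). With 1 library left out, the double mutant against wt gave 2 to 5 calls among the 8 genes, and against mot2∆ 1 to 5 among the 8 and 1 to 3 among the others. The call of ctt1 against mot2∆ was lost with RLE size factors, DESeq2 and the replicate blocks, leaving 1 call, and shu1 was not tested where 10 counts were required in every library.

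The replicate numbers came from the titles, and the replicate differences of 2 genotypes correlated across features between -0.108 and 0.163, so the libraries shared only a number. With the replicate block the double mutant against wt had 2 calls among the 8 genes (fip1 lost, log2 value 0.998) and against mot2∆ 1 among the other iron genes (ctt1 lost). The crossed replicate block gave the same counts of 2 and 1. A block changed no other call. Scaling by total counts moved the median of all features by -0.113 in the interaction, by -0.09 and -0.08 for the double mutant against mot2∆ and mamRNA∆, by -0.05 for the double mutant against wt and by 0.03 in each single mutant, and turned 31.8% and 40.0% of calls higher into 20.1% and 28.8% for the double mutant against mot2∆ and the interaction. Where 1 library is left out, the lone library is assumed to vary like the other genotypes. With 2 libraries a genotype, differences under the threshold are not shown to be absent.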
